A study of Mus musculus with 8 samples.

Results

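The core autophagy machinery was examined in mouse myotubes given Cre recombinase to delete RhoA, a small GTPase, and in control myotubes without Cre. The 37 genes, chosen by name, encode the complexes that start, build and load the autophagosome, and 36 of them had a row on the arrays, of 19505 genes with a row. Optn, a ubiquitin-binding cargo receptor, had no row used here, so its expression is not analysed here. A gene with several rows is represented by its brightest row.

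Autophagy is the route by which a cell wraps cytoplasm, protein aggregates or organelles in a double membrane and delivers them to the lysosome. A kinase complex around ULK1 starts the process, a lipid kinase complex around Beclin 1 marks the membrane with phosphatidylinositol 3-phosphate (PI3P), and a pair of ubiquitin-like conjugation systems attaches proteins of the ATG8 family to the growing membrane, where cargo receptors bind them. In skeletal muscle the pathway is known for removing damaged mitochondria and for providing amino acids in fasting, and both its excess and its loss are known to reduce muscle mass.

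Primary myoblasts were sorted from the muscle of RhoA flox/flox mice carrying a Pax7-nGFP reporter, in which a green nuclear protein marks satellite cells, the muscle stem cells. They were differentiated into myotubes and transduced with an adenovirus. The labels give day 3 of differentiation and 48 h of adenovirus. The methods place the transduction after 3 days of differentiation, so that day 3 would be the day of transduction and not of RNA collection, and the labels alone do not settle this. The 4 control arrays came from cells given Ad-mCherry and the 4 others from cells given Ad-Cre-mCherry, whose Cre recombinase excises the floxed RhoA. Both groups therefore carried the floxed alleles, an adenovirus and mCherry, and the presence of Cre was not matched between them. The labels call the tissue adult muscle stem cells and number the arrays 1 to 4 in each group. The labels do not tie arrays to cultures, and the methods describe 3 independent cultures, fewer than the 4 arrays per group. Some arrays of a group may therefore share a culture, and the p-values, which count 4 arrays per group, measure the spread between these samples, which may be technical.

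Values are log2 expression after RMA, and a difference is the mean of the 4 Ad-Cre-mCherry arrays minus that of the 4 Ad-mCherry arrays, fitted with limma across all 19505 genes. Rhoa, the deleted gene, measured 11.16, 11.39, 11.08 and 11.39 in the control arrays 1 to 4 and 9.99, 10.87, 10.87 and 10.23 in the Cre arrays. All 4 Cre values lay below all 4 control values, with a difference of -0.77 (SE 0.23, limma's unadjusted p = 0.00909, Benjamini-Hochberg adjusted p = 0.729, exact permutation p = 0.0286, the smallest that 4 against 4 arrays can give). This is a fold of 1.70, so the Rhoa signal fell with Cre but was not lost. The part of the Rhoa transcript that the row covers relative to the floxed region is not known here. All 8 myotube markers examined (Myh3, Myog, Ckm, Acta1, Tnnt3, Mymk, Des and Ttn) lay at or above the median gene level, and their mean level per array was 15.47 to 16.15 in the control and 14.92 to 15.94 in the Cre arrays. Of the 8, 2 passed the study's thresholds, both lower with Cre: Myh3, an embryonic myosin heavy chain, by -1.23 and Myog, the myogenic regulator myogenin, by -1.48. When limma's model also held a term for the replicate number (the block), 4 of the 8 passed, with Myh3 and Myog each at an adjusted p of 0.0396, Ttn lower by -0.65 and Ckm higher by 0.62. The mean of the satellite cell list (Pax7, Myf5, Cdh15 and Vcam1) was 5.65 to 6.73 in the control and 5.33 to 6.30 in the Cre arrays, with 0 of its 4 genes past the thresholds without the block and Pax7 at a mean of 3.72 in the control arrays. With the block 3 of the 4 passed as lower, Myf5 by -1.07, Cdh15 by -0.54 and Vcam1 by -0.43. For fibroblasts 3 of 4 markers, for adipocytes 1 of 4, for macrophages 0 of 4 and for endothelial cells 0 of 4 reached the median gene level, and 0 of these passed the thresholds in either fit. The part of cell composition in the autophagy values was not tested, and in these bulk samples fewer cells of a type and less RNA per cell cannot be told apart.

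Of the 36 autophagy genes, 22 were higher and 14 lower with Cre, with a median difference of 0.11, beside 49.9% higher and a median of 0.00 over all 19505 genes. Among genes at or above the median level, 46.7% were higher and the median was -0.03. The study's thresholds for its arrays, a fold change of at least 1.2 with an unadjusted p under 0.05, were passed by 3 genes. Atg101 and Atg7 were higher and Atg3 was lower. That is 8.33% of the genes, beside 6.42% of all genes (2.92% higher and 3.5% lower), and beside 9.76% of the genes at or above the median level, where 33 of the 36 lie. An adjusted p under 0.05 was reached by 0 of the 36 in limma's fit, as by 0% of all genes, with 3 of the 36 at an unadjusted p under 0.05 and 2 in a gene-wise test with unequal variances. Of all 19505 genes, 1252 and 955 were under 0.05 in these tests, and of the 9754 at or above the median level 952 and 555. The control and Cre ranges were separate for 3 genes, Atg101, Atg16l1 and Atg3. That is 8.33%, beside 3.75% of all genes and 4.62% of the genes at or above the median level.

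Arrays with the same replicate number deviated together from their group means, so the numbers were taken to pair the arrays and the fit was repeated with the number as a block. The thresholds were then passed by 6 autophagy genes, 3 higher (Atg101, Atg7 and Sqstm1) and 3 lower (Rb1cc1, Atg2b and Atg3). That is 16.7%, beside 14.7% of all genes (6.54% higher and 8.2% lower) and 24.6% of the genes at or above the median level. An adjusted p under 0.05 was still reached by 0 autophagy genes, beside 0.323% of all genes, and the smallest adjusted p among them was 0.120, for Atg7. With either fit the share of the machinery past the thresholds was near or below that of genes of like level, so these counts do not set it apart. The plot of differences by role shows how widely single genes vary around 0 within each step of the pathway.

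**Figure D1:**
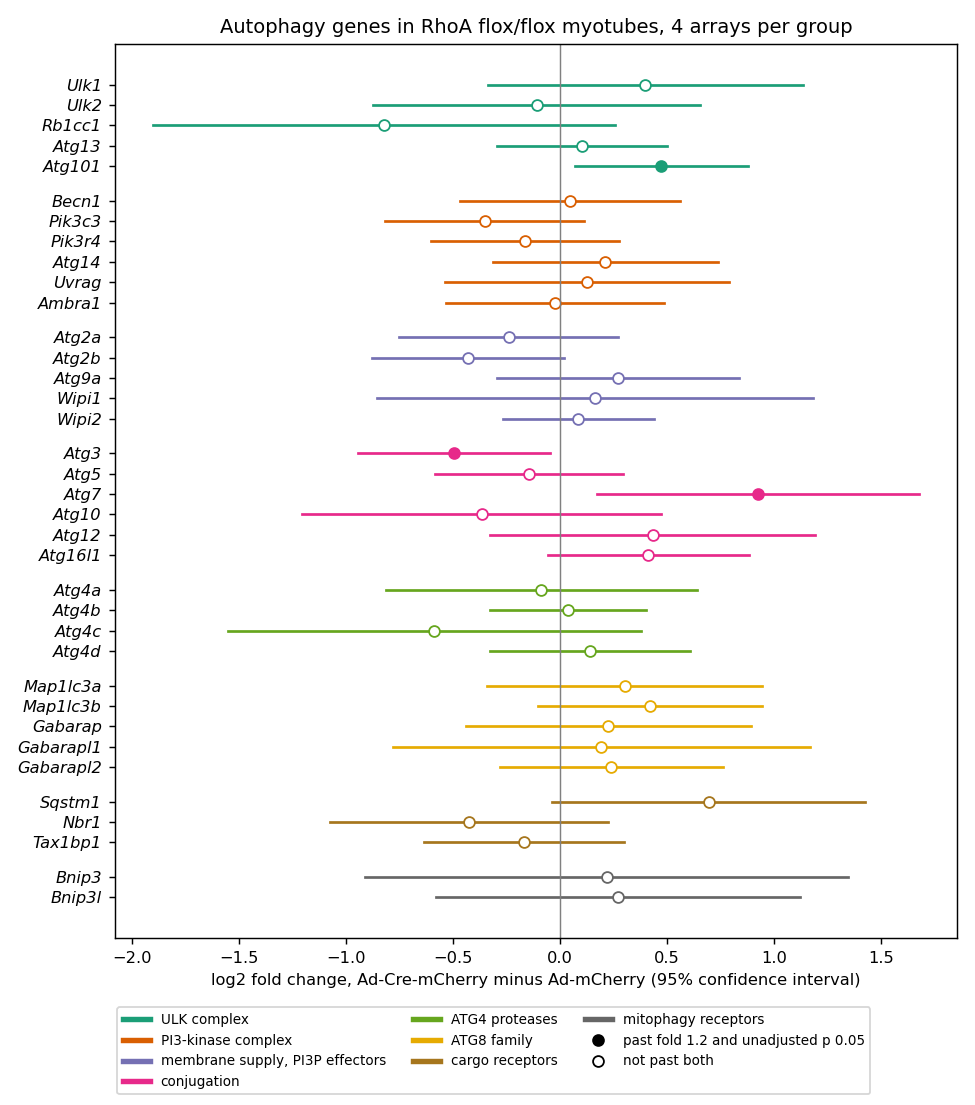
Difference in log2 expression (horizontal axis, Ad-Cre-mCherry minus Ad-mCherry, 4 arrays per group) of the 36 autophagy genes, grouped and coloured by role, with limma's 95% confidence interval in the fit without a block as a line. Filled points are the 3 genes past the study's thresholds, Atg101, Atg7 and Atg3, and the intervals of the other 33 include 0.

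The initiation complex holds the kinases ULK1 and ULK2, the scaffold FIP200 (encoded by Rb1cc1) and the adaptors ATG13 and ATG101. Of its 5 genes 3 were higher and 2 lower. Atg101, whose product stabilises ATG13, measured 10.34, 10.10, 10.51 and 10.33 in the control arrays 1 to 4 and 10.87, 10.56, 10.62 and 11.12 in the Cre arrays. Each Cre array lay above every control array, although Cre replicate 2 lay only just above control replicate 3. The difference was 0.47 (SE 0.18, 95% confidence interval 0.07 to 0.88, a fold of 1.39), with limma's unadjusted p = 0.0269, adjusted p = 0.748 and an exact permutation p of 0.0286. It was higher in 4 of 4 replicate numbers.

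Rb1cc1 went the other way. It measured 11.14, 11.93, 11.57 and 11.75 in the control arrays and 9.14, 11.39, 11.23 and 11.34 in the Cre arrays. Cre replicate 1 lay far below the rest, and the other 3 Cre arrays lay within the range of the control arrays. The difference was -0.82 (SE 0.48, limma's adjusted p = 0.798) and, with the replicate block, had an SE of 0.27, an unadjusted p of 0.0120 and an adjusted p of 0.193. Within the replicate numbers 1 to 4 it was -2.0, -0.54, -0.34 and -0.41, lower in 4 of 4. Without Cre replicate 1 it was -0.28, and without replicate number 1 the blocked difference of -0.43 did not pass the thresholds. The remaining initiation genes did not pass the thresholds. Ulk1 was at 7.24 ± 0.51 (SD, n = 4) with Ad-mCherry and 7.64 ± 0.54 with Ad-Cre-mCherry, higher in 4 of 4 replicate numbers by 0.05 to 0.99. Ulk2 and Atg13 differed by -0.11 and 0.10.

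Differences in the lipid kinase complex of nucleation ran from -0.35 to 0.21, and 0 of its 6 genes passed the thresholds in either fit. Pik3c3, the catalytic subunit VPS34, measured 6.42, 6.5, 5.86 and 6.29 in the control and 5.96, 5.69, 6.29 and 5.72 in the Cre arrays. It was lower in 3 of 4 replicate numbers and higher in the third, with a difference of -0.35 (SE 0.21, limma's adjusted p = 0.799). It was -0.61 without replicate 3, -0.49 without control replicate 3 and -0.48 without Cre replicate 3, past the thresholds in each of these, and -0.20 without replicate 2. Uvrag, a Beclin 1 partner that acts in maturation and endosomal traffic, measured 7.98, 8.17, 8.5 and 8.88 in the control and 7.96, 8.16, 8.98 and 8.93 in the Cre arrays. The groups covered nearly the same range, with a difference of 0.12 (SE 0.30, 95% confidence interval -0.54 to 0.79). Becn1, encoding Beclin 1 itself, differed by 0.04 (95% confidence interval -0.47 to 0.56), and Atg14, which directs the complex to autophagosome formation, by 0.21. Pik3r4, the regulatory subunit, and Ambra1, a Beclin 1 regulator, differed by -0.17 and -0.02.

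ATG9A is the membrane protein carried on the vesicles that seed the autophagosome, ATG2A and ATG2B transfer lipid to it, and WIPI1 and WIPI2 read PI3P. Atg2b measured 9.66, 9.36, 9.62 and 9.15 in the control arrays and 9.31, 8.78, 9.21 and 8.76 in the Cre arrays. The Cre array lay below its control array for every replicate number, by -0.35, -0.58, -0.41 and -0.39, while the groups as a whole overlapped. The difference was -0.43 (SE 0.20, limma's unadjusted p = 0.0571, adjusted p = 0.760) and passed the thresholds with the block (SE 0.17, unadjusted p = 0.0277, adjusted p = 0.268), but not without replicate number 2, 3 or 4 (-0.38, -0.44 and -0.45), nor with the span trend of each array removed (-0.30). Its paralog Atg2a was dim, at 4.07 ± 0.20 in the control, and differed by -0.24.

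Atg9a measured 10.55, 10.60, 10.77 and 10.37 in the control and 11.53, 10.66, 10.85 and 10.33 in the Cre arrays. Cre replicate 1 alone lay clearly above the control range, and the difference of 0.27 (SE 0.25, limma's adjusted p = 0.871) was 0.04 without that array. Wipi1 and Wipi2 differed by 0.16 and 0.09.

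The conjugation systems held 2 of the 3 genes past the thresholds, 1 in each direction. ATG7 is the E1-like enzyme that activates both ATG12 and the ATG8 proteins, ATG10 and ATG3 are the E2-like enzymes that pass on ATG12 and the ATG8 proteins respectively, and ATG12, ATG5 and ATG16L1 form the complex that acts as the ligase. Atg7 measured 6.35, 5.97, 5.46 and 6.60 in the control arrays and 7.79, 7.14, 6.57 and 6.58 in the Cre arrays. It was higher with Cre by 1.44, 1.17 and 1.11 for replicate numbers 1 to 3 and level for replicate 4, at -0.02, so the groups overlapped through Cre replicates 3 and 4 and control replicate 4. The difference was 0.93 (SE 0.33, 95% confidence interval 0.17 to 1.68, a fold of 1.90), with limma's unadjusted p = 0.0214, adjusted p = 0.748 and an exact permutation p of 0.0857. With the block the unadjusted p was 0.00311 and the adjusted p 0.120, and the blocked fit passed the thresholds without each replicate number in turn (0.75 to 1.24).

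Atg3, the enzyme that acts directly after ATG7 on the ATG8 proteins, was lower. It measured 13.29, 13.28, 12.73 and 12.75 in the control arrays and 12.30, 12.68, 12.69 and 12.40 in the Cre arrays. Every Cre array lay below every control array, with Cre replicate 3 only 0.04 below control replicate 3, and control replicates 1 and 2 stood above the other two. The difference was -0.50 (SE 0.20, 95% confidence interval -0.94 to -0.05, a fold of 1.41), with limma's unadjusted p = 0.0338, adjusted p = 0.753 and an exact permutation p of 0.0286.

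Atg16l1 did not overlap between the groups and yet did not pass the thresholds. It measured 7.5, 7.60, 7.81 and 7.84 in the control arrays and 7.98, 7.92, 7.85 and 8.65 in the Cre arrays, where replicate 4 stood apart and replicate 3 lay only just above the highest control. The difference was 0.41 (SE 0.21, limma's unadjusted p = 0.0793, adjusted p = 0.767, exact permutation p = 0.0286), and 0.052 was the unadjusted p with the block. It was 0.23 without Cre replicate 4. Atg12 was at 9.44 ± 0.32 in the control and 9.87 ± 0.70 in the Cre arrays, higher in 4 of 4 replicate numbers by 0.02 to 1.11. Atg10 was lower in 4 of 4, by -1.27 in replicate 1 and by -0.02 to -0.10 in the others. Atg5 differed by -0.14. Without the block, the 3 calls among the conjugation and initiation genes depended on single arrays. Atg7 lost its call without replicate 2 (0.84), without control replicate 3 (0.71) or without Cre replicate 1 (0.67), and in both gene-wise tests. Atg101 lost it without replicate 1, 2 or 4, control replicate 2, Cre replicate 1 or Cre replicate 4 (0.36 to 0.48), and Atg3 without replicate 1, 2 or 4, control replicate 1 or 2, or Cre replicate 1 or 4 (-0.33 to -0.54). With the block, Atg101 and Atg3 also lost their calls without replicate number 1 (0.45 and -0.33) and without replicate number 2 (0.48 and -0.46).

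**Figure D2:**
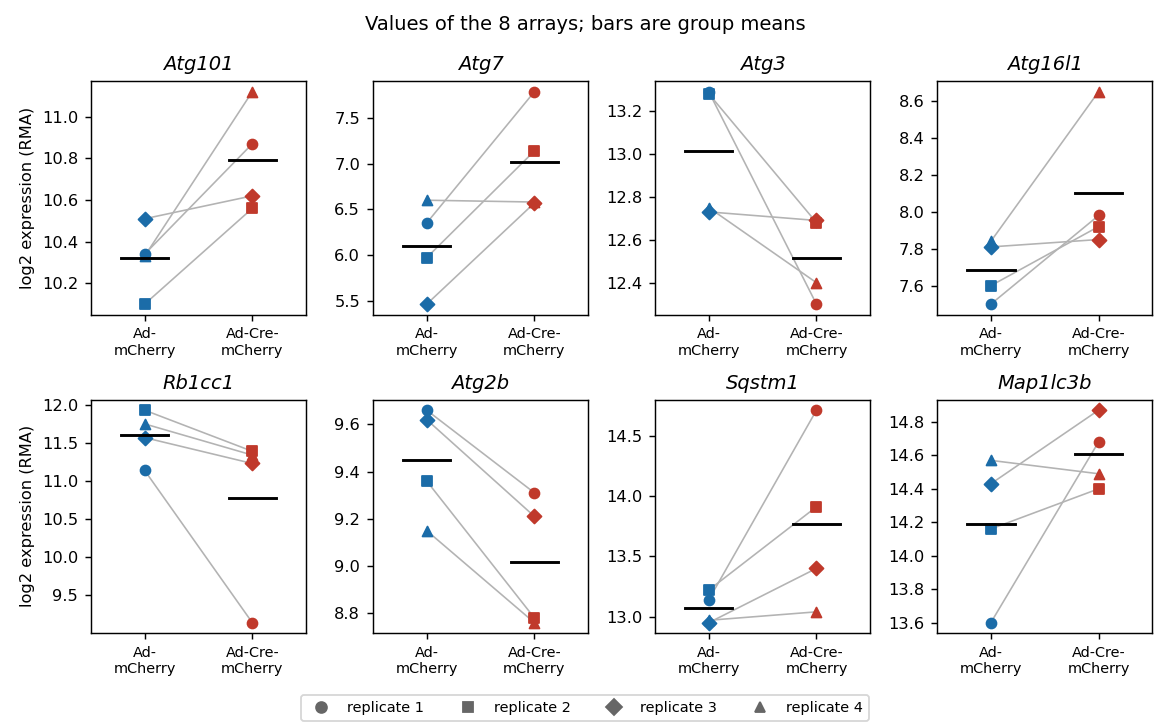
Log2 expression (vertical axis, a separate scale for each gene) of 8 autophagy genes in the 4 Ad-mCherry arrays (blue) and the 4 Ad-Cre-mCherry arrays (red). Symbols give the replicate number, grey lines join arrays of the same number and black bars are group means. Atg101, Atg3 and Atg16l1 do not overlap between the groups, and Cre replicate 1 sets much of the difference of Rb1cc1 (9.14) and Sqstm1 (14.71).

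Promoter sequence was looked at for these enzymes because genes of autophagy are known targets of TFEB, which binds the CLEAR element with the core CACGTG, of FoxO factors, with the core GTAAACA, and, for Sqstm1 among others, of NRF2, whose response element has the core TGACNNNGC. RefSeq windows of the GRCm38.p6 build, the 250 bases before a start site, were found for 30 of the 37 genes (34 windows) and read on both strands. CACGTG stood in the windows of 4 genes, Atg3, Atg5, Atg7 and Bnip3, or 11.8% of their windows and 6.02% of all 32851. TGACNNNGC stood in 3, Atg13, Tax1bp1 and Ulk2 (8.82%, beside 10.2% of all), and GTAAACA in 0 (beside 3.17% of all). The windows of the 3 genes past the thresholds are shown 5′ to 3′ on the gene's strand, with CACGTG in capitals. Atg3 lies at chr16:45158579-45158828 (plus strand), Atg7 at chr6:114670846-114671095 (plus) and Atg101 at chr15:101284051-101284300 (plus).
Atg3: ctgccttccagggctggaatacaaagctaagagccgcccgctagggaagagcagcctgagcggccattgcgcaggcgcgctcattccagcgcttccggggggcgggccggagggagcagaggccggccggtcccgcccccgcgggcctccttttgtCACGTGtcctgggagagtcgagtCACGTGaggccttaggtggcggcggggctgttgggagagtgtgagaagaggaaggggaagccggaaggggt
Atg7: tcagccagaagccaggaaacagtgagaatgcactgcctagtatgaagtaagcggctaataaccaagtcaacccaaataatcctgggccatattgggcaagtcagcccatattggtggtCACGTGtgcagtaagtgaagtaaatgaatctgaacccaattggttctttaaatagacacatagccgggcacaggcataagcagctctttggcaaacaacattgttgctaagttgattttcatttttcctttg
Atg101: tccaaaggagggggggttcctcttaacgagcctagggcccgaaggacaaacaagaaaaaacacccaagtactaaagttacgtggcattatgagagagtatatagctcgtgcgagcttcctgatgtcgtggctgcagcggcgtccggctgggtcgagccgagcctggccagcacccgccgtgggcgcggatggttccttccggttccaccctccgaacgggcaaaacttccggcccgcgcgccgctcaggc
The Atg3 window holds the motif 2 times, at positions -94 and -71 from the start, and the Atg7 window 1 time, at -132. The Atg7 window belongs to a start inside the outermost span of the gene. Atg3 was lower and Atg7 higher with Cre, Atg101 was higher with 0 of the 3 motifs in its window, and Atg5 and Bnip3, which hold the motif, differed by -0.14 and 0.22 without passing the thresholds. A match describes the letters only.

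ATG4 proteases trim the ATG8 proteins before conjugation and release them afterwards. Of the 4 genes 2 were higher and 2 lower, and 0 passed the thresholds in either fit. Atg4c measured 5.18, 6.0, 4.54 and 4.95 in the control and 3.39, 4.81, 5.07 and 5.05 in the Cre arrays. It was lower by -1.79 and -1.19 for replicate numbers 1 and 2 and higher for 3 and 4, with a mean difference of -0.59 (SE 0.43, limma's adjusted p = 0.837), and -0.19 without Cre replicate 1. Atg4a measured 9.53, 10.08, 10.41 and 10.52 in the control and 9.26, 10.30, 10.02 and 10.61 in the Cre arrays, nearly the same range in both, with a difference of -0.09 (95% confidence interval -0.81 to 0.64). Atg4b and Atg4d differed by 0.04 and 0.14.

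All 5 genes of the ATG8 family, whose lipid-bound products coat the membrane and hold the cargo receptors, were higher with Cre, by 0.19 to 0.42, and 0 of them passed the thresholds in either fit. Map1lc3b, which encodes LC3B, the usual marker of autophagosomes, measured 13.60, 14.16, 14.43 and 14.57 in the control and 14.68, 14.40, 14.87 and 14.49 in the Cre arrays. The groups overlapped, with control replicate 1 the lowest value, and the Cre array was above its control for 3 of the 4 replicate numbers. The difference was 0.42 (SE 0.23, 95% confidence interval -0.10 to 0.94, limma's adjusted p = 0.786), and 0.22 without control replicate 1. Map1lc3a, Gabarap, Gabarapl1 and Gabarapl2 were higher by 0.30, 0.23, 0.19 and 0.24, each in 3 of 4 replicate numbers. The exception was replicate 3 for Map1lc3a and Gabarapl2, replicate 4 for Gabarap and replicate 1 for Gabarapl1.

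Cargo receptors bind ubiquitinated material and the ATG8 proteins together. Sqstm1, encoding p62, measured 13.14, 13.22, 12.95 and 12.97 in the control arrays and 14.71, 13.91, 13.40 and 13.04 in the Cre arrays. It was higher for all 4 replicate numbers, by 1.57, 0.69, 0.45 and 0.07, and Cre replicate 4 lay within the control range. The difference was 0.70 (SE 0.32, a fold of 1.62), with limma's unadjusted p = 0.0601, adjusted p = 0.760 and an exact permutation p of 0.0857, and it passed the thresholds with the block (SE 0.24, unadjusted p = 0.0153, adjusted p = 0.211), but not without replicate number 1 (0.40). Without Cre replicate 1 alone the difference was 0.38. Nbr1, which can bind the same cargo, was at 10.02 ± 0.19 in the control and 9.59 ± 0.61 in the Cre arrays, and Tax1bp1 at 11.22 ± 0.31 and 11.05 ± 0.26. These were lower by -0.42 and -0.17 and did not pass.

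Bnip3 and Bnip3l encode receptors on the outer mitochondrial membrane that recruit ATG8 proteins in mitophagy. Bnip3l measured 11.13, 9.91, 10.85 and 10.88 in the control and 11.87, 10.19, 10.99 and 10.81 in the Cre arrays, with replicate 2 the lowest in both groups. The difference was 0.27 (SE 0.38, limma's adjusted p = 0.917), and with the block its SE was 0.19. Bnip3 differed by 0.22, with 0.64 in replicate 2 and 0.24, -0.01 and 0.00 in the others.

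Gene length was related to the direction of change. Length was taken as the span of the gene from its first to its last base in the GRCm38.p6 annotation, introns included, and it ran from 1.71 kb for Map1lc3a to 289 kb for Atg10. Across the 36 genes the Spearman correlation of span with the difference was -0.57, beside -0.24 across all genes, -0.36 across genes at or above the median level and -0.58 across 48 other autophagy genes. The genes share the same 8 arrays and are not independent replicates, so no p is given. Split at their median span of 32.3 kb, 15 of the 18 shorter genes were higher with Cre (median difference 0.23), and 7 of the 18 longer ones (median -0.10). Over all genes 56.2% of those under 32.3 kb and 37.1% of those over it were higher, and at or above the median level 57.5% and 29.7%. The longer autophagy genes (38.9% higher) were thus higher about as often as all long genes, but more often than long genes at or above the median level. The shorter ones (83.3% higher) were higher more often than short genes of either set. These differences were not tested.

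Individual genes sat on either side of the relation. All 5 genes of the ATG8 family span at most 12.2 kb, and without them the correlation across the remaining 31 was -0.48. Sqstm1 spans 10.7 kb and Atg101 6.65 kb, and both were higher. Rb1cc1 (61.7 kb) and Atg2b (71.8 kb) were lower. Atg7 is the clearest exception, at 217 kb and higher by 0.93, where the trend over all genes of that span was -0.22. Atg3, at 29.7 kb, was lower by -0.50 where the trend was -0.02. Without the 4 longest genes (Atg10, Uvrag, Atg7 and Atg4a) the correlation was -0.71 over 32 genes. When the span trend was removed from each array, 26 of the 36 genes were higher, the median difference was 0.14, the correlation was -0.35, and Atg101, Atg7 and Atg3 still passed the thresholds. Of all 19505 genes, 1232 passed with the trend removed and 1252 in the main fit. Span and mean level were also correlated across the 36 genes, at -0.33, and level and difference at 0.23.

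**Figure D3:**
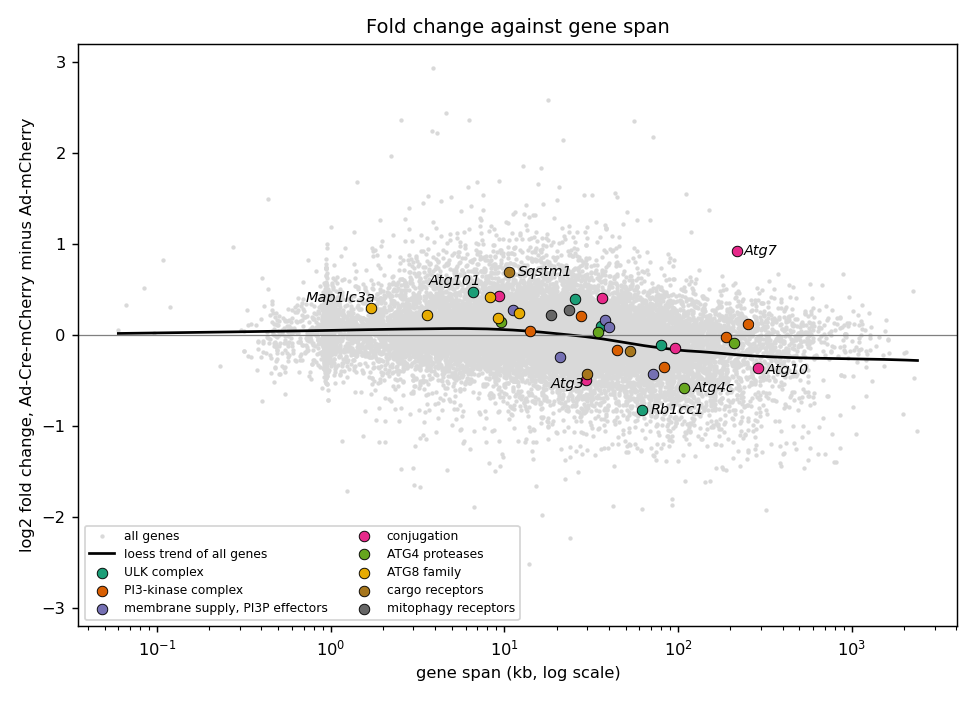
Difference in log2 expression (vertical axis, Ad-Cre-mCherry minus Ad-mCherry) against gene span in kb (horizontal axis, log scale) for all 19505 genes (grey) and the 36 autophagy genes (coloured by role), with the loess trend over all genes as a black line. Short autophagy genes such as Sqstm1 (10.7 kb) lie mostly above 0 and longer ones such as Rb1cc1 (61.7 kb) mostly below it, with Atg7 (217 kb) far above the trend.

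The relation was not the same in each replicate. Within replicate numbers 1 to 4 the correlation across the 36 genes was -0.61, -0.48, 0.10 and -0.21, beside -0.22, -0.17, -0.02 and -0.17 across all genes. Replicate 1 also held the largest changes, with a median absolute difference of 0.46 over the 36 genes against 0.31, 0.21 and 0.18 in replicates 2 to 4. Over all genes this median was 0.36, 0.31, 0.24 and 0.28 in replicates 1 to 4. At or above the median level it was 0.54, 0.36, 0.26 and 0.31. Rhoa differed by -1.17, -0.52, -0.21 and -1.16 in replicates 1 to 4. A relation of its loss to the correlation or to the size of the changes was not tested. Without Cre replicate 1 the correlation over the 36 genes was -0.30. Against the other Cre arrays, Cre replicate 1 itself deviated with span at -0.47 over the 36 genes (-0.12 over all genes). Cre replicates 2, 3 and 4 deviated at 0.14, 0.47 and 0.26 (0.07, 0.11 and -0.02 over all genes). Control arrays deviated at -0.19 to 0.16 over the 36 genes. The same direction in all 4 replicate numbers was found for 11 of the 36 genes, 6 higher and 5 lower. Of all 19505 genes, 1927 were higher and 2164 lower in all 4. Of the 9754 at or above the median level, these were 1209 and 1526. The share of the autophagy genes was thus near that of genes of like level. Higher in all 4 were Ulk1, Atg101, Atg14, Atg12, Atg16l1 and Sqstm1, and lower in all 4 were Rb1cc1, Atg2b, Atg3, Atg10 and Tax1bp1.

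**Figure D4:**
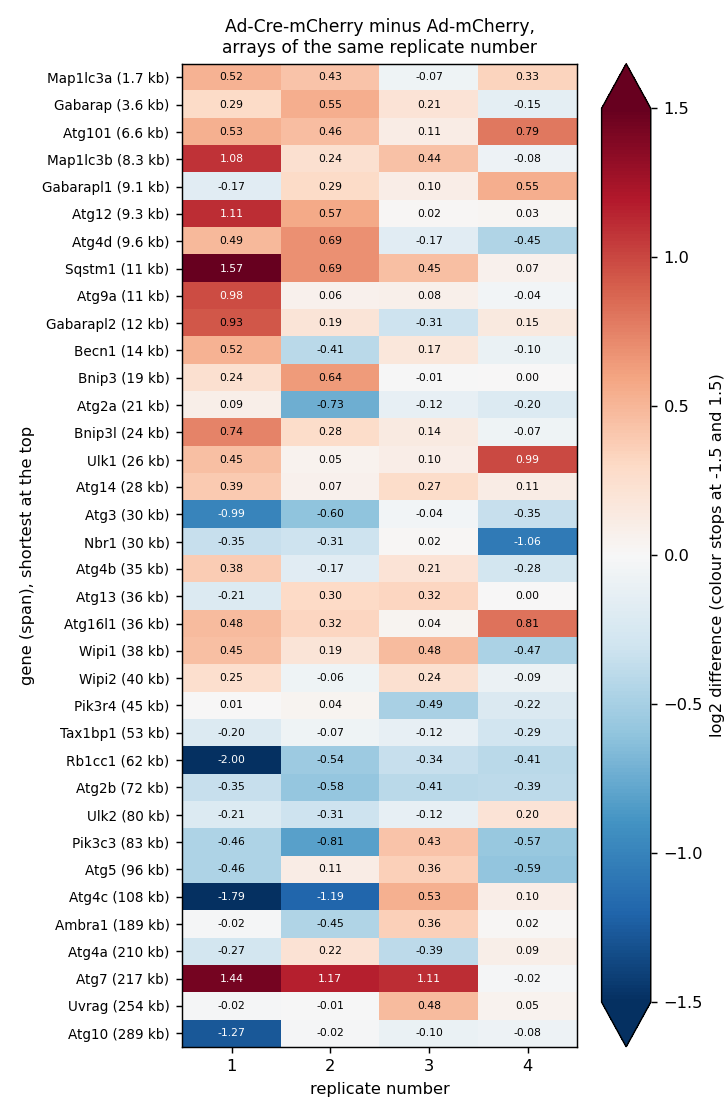
Difference in log2 expression between the Ad-Cre-mCherry and the Ad-mCherry array of the same replicate number (columns 1 to 4) for the 36 autophagy genes, ordered from the shortest gene span at the top to the longest at the bottom, with red for higher and blue for lower with Cre. Red gathers at the top and blue in the lower part in replicates 1 and 2, and replicate 3 shows the opposite in several long genes such as Pik3c3 (0.43) and Atg4c (0.53).

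Beyond the 37 genes, 48 of 51 listed regulators, fusion factors and further receptors of autophagy were measured. Differences were above 0 for 27 and below 0 for 21 (median 0.03), and 3 passed the thresholds, or 6.25%, near the 6.42% of all genes and below the 9.76% of genes at or above the median level, where 45 of the 48 lie. Ykt6, a SNARE protein of fusion with the lysosome, measured 6.31, 6.54, 6.45 and 6.49 in the control and 7.44, 7.83, 7.04 and 6.51 in the Cre arrays, higher in 4 of 4 replicate numbers by a mean of 0.76 (SE 0.27, limma's adjusted p = 0.738). Sesn1, a stress-induced inhibitor of mTORC1, measured 10, 9.83, 9.85 and 9.45 in the control and 8.42, 8.85, 9.37 and 9.53 in the Cre arrays, a difference of -0.74 (SE 0.26, adjusted p = 0.739) with 0.08 in replicate 4. Zfyve1, encoding the PI3P-binding protein DFCP1 that marks the site of autophagosome formation, measured 6.48, 6.45, 6.63 and 6.79 in the control and 5.64, 6.47, 6.27 and 5.71 in the Cre arrays, a difference of -0.56 (SE 0.22, adjusted p = 0.752) with 0.02 in replicate 2. The groups overlapped for each of these genes. Without the block, Ykt6 and Sesn1 lost their calls without replicate 1 (0.63 and -0.46) or replicate 2 (0.58 and -0.66). Zfyve1 lost its call without replicate 1, 3 or 4, control replicate 3 or 4, or Cre replicate 1 or 4 (-0.39 to -0.63). The gene-wise test with unequal variances lost all 3, and Zfyve1 was also lost with array weights and with eBayes trend and robust settings.

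With the block 8 of the 48 passed, or 16.7%, 5 higher and 3 lower, beside 14.7% of all genes and 24.6% of those at or above the median level. An adjusted p under 0.05 was reached by 1, beside 0.323% of all genes. That gene, Bcl2, whose product binds Beclin 1 and restrains it, was named after its values were seen. It measured 7.97, 7.30, 5.41 and 5.56 in the control and 6.45, 6.33, 4.55 and 4.07 in the Cre arrays. Replicates 1 and 2 were high and 3 and 4 low in both groups, and the Cre array was lower for each number, by -1.52, -0.97, -0.86 and -1.49. The difference of -1.21 had an SE of 0.72 and an adjusted p of 0.799 without the block, and an SE of 0.19 and an adjusted p of 0.0396 with it. Without replicate number 1, 2, 3 or 4 the blocked adjusted p was 0.0636, 0.249, 0.0632 and 0.0881. The upstream regulators Mtor, Tfeb and Foxo3, the kinase of nutrient sensing and a pair of transcription factors of autophagy genes, differed by 0.48, -0.16 and -0.08 and did not pass in either fit.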

How the data were processed

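RNA was measured on 8 arrays, 4 per group, with groups and replicate numbers from the labels. The authors made the deposited log2 values with RMA in Affymetrix Expression Console (versions not given in the sources used here), which corrects background, normalizes by quantiles and summarises probes. The deposited values have 2 decimals, with array medians of 4.78 to 4.87. The array number limits the precision, and detection above background was not assessed. Of 22206 rows, 19572 had 1 gene symbol, 0 several and 2634 none, giving 19505 genes.

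From these values limma 3.58.1 (lmFit, eBayes) in R 4.3.3 compared the groups, two-sided, with Benjamini-Hochberg adjustment over all genes. The fits were also run on simulated data, whose planted changes were larger than any difference of the autophagy genes. Recovery of differences of their size was therefore not examined. The methods name no test for the arrays. Same-numbered arrays' deviations from their group means correlated at 0.516 to 0.623, and those of different numbers at -0.424 to 0.128, so the pairing comes from the data and a replicate block was also fitted. The span trend was a loess fit (span 0.5). Members and lists were chosen with earlier results of these data known. Named with all values were members past the thresholds or at an adjusted p under 0.05 in either fit, members without overlap and, per role, the member with the largest absolute difference and that with the highest mean. Other autophagy genes were named if past the thresholds without the block. Alternatives were another quantile normalization, median centring, a level filter, the mean of rows, array weights, gene-wise tests, eBayes with its trend and robust options, the block, removal of the span trend and leaving out arrays.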

Additional observations from a re-analysis of the deposited data

Results flagged for a closer look

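In each of 36 groups of 4 arrays, 18 named genes with both groups each, the highest or lowest value was compared with the nearest other by Dixon's criterion at the 95% level, and 3 groups held a value apart. Chance flags about 1 in 20 groups. Rb1cc1 in Ad-Cre-mCherry replicate 1 was at 9.14 (the other Cre arrays at 11.23 to 11.39), Atg4c in the same array was at 3.39 (others 4.81 to 5.07), and Atg16l1 in Ad-Cre-mCherry replicate 4 was at 8.65 (others 7.85 to 7.98).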

How the results depend on the processing

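The number of autophagy genes past the study's thresholds was 3 and became 6 with the replicate block, 6 with the span trend removed and the block (Atg2b lost at -0.30 and Atg16l1 gained at 0.45), 1 when only genes at or above the median level were fitted and 1 with eBayes trend and robust settings. With 1 array or 1 replicate number left out it ran from 0 to 5, and to 9 with the block. The share of all genes past the thresholds was 6.42% in the main fit and 14.7% with the block. It was not computed for the other fits in this list, so their counts cannot be read as a result about the autophagy genes. Without the block, the number of autophagy genes was 0 without replicate 2, 1 without replicate 1, control replicate 2 or Cre replicate 1, and 5 without Cre replicate 3. The level filter and the trend setting each lost Atg101 and Atg3. The count at an adjusted p under 0.05 was 0 under every alternative run. The count without overlap was 2 to 3 under the other alternatives and ran from 3 to 6 with arrays left out. Smaller groups are more often separate by chance, and the share of all genes without overlap was not computed with arrays left out. The counts with arrays left out therefore cannot be compared with the count from all arrays. The median difference remained above 0 in each of these fits (0.03 to 0.15), and the correlation with span remained below 0 (-0.58 to -0.30). Within the single replicate numbers 1 to 4 the median was 0.245, 0.065, 0.1 and -0.055, so replicate 4 went the other way. Atg4a turned to 0.13 with the span trend removed, with or without the block, and ran from -0.29 to 0.18 with arrays left out, with 0.013 without replicate 3, with or without the block, and 0.0042, 0.041 and 0.18 without control replicate 3, control replicate 4 and Cre replicate 1. Uvrag ran from -0.0325 to 0.31 there and turned to -0.0092, -0.0325 and -0.016 without control replicate 1, Cre replicate 3 and Cre replicate 4. Bnip3l ran from -0.029 to 0.53 and turned to -0.029 without Cre replicate 1. The causes were not tested. The blocked fits with the span trend removed or a replicate number left out were chosen after seeing the data. Transcript or protein length in place of span was not run, since the tables used here give none. With 4 arrays per group the 95% confidence intervals of 33 of the 36 genes include 0, and how far dim rows lie above background is not known.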
